A study of Mus musculus with 111 samples.

Results

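The first cohort of an RNA-seq study of the mouse tuberomammillary nucleus (TMN) was examined for rows whose daily rhythm differed between mice given a mutant histone and control mice. It held 78 of the 110 libraries of the series, taken as every library that the labels assign to cohort 1, and the other 32 were of cohorts 2 and 3. Each library came from 1 C57BL/6 mouse of a mixed male and female group, bought at 8 to 10 weeks of age, that had received an adeno-associated virus (AAV) in both TMN. The viruses carried GFP alone (28 libraries), wild-type histone H3.3 (24 libraries) or H3.3 with glutamine 5 replaced by alanine (Q5A, 26 libraries), and all 3 vectors also expressed GFP. Tissue lit by GFP was dissected 21 days later at zeitgeber time (ZT) 0, 4, 8, 12, 16 or 20, with lights on from ZT0 to ZT12. There were 4 or 5 GFP, 4 H3.3 and 4 or 5 Q5A libraries at each ZT, and the study pooled GFP and H3.3 as the controls. The Q5A mice kept their own H3.3 genes, no cell type that limits the virus was stated, and each sample was a piece of tissue that also held cells without virus. Fewer cells of a type and less RNA per cell cannot be told apart in such libraries.

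The TMN is the group of posterior hypothalamic neurons that makes histamine for the rest of the brain, and it promotes waking. Histamine and serotonin can be joined to glutamine 5 of the histone H3 tail, beside the lysine 4 whose methylation marks active promoters, and alanine at that position cannot accept them. In most cells a molecular clock, in which CLOCK and BMAL1 drive Per, Cry, Nr1d and Dbp genes and are in turn held back by some of their products, gives many transcripts a rhythm of about a day. A cosinor describes such a rhythm by 1 cosine wave with a period of 24 h, an amplitude (the distance from its mean to its peak, here in log2 units) and a time of peak. The question was which transcripts had another wave in Q5A than in the controls.

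The libraries held 673306 to 1894491 counts in gene rows (median 1333160), which were 3.49% to 4.82% of their uniquely placed reads. The library kit gives first reads from the strand opposite to the RNA. The stated counting option takes first reads on the gene's own strand. A row can therefore hold reads that did not come from the messenger RNA of the gene it is named for. Parpbp, for example, had a median of 15790.5 reads, against 58.5 for Pmch, whose exons overlap it on the other strand. How far each row holds reads of its own gene was not tested. Of the 11405 rows tested, 8949 matched the annotation and 43.2% of those have an exon that overlaps an exon on the other strand. For this reason results are given by row, and a gene overlapping on the other strand is named beside the rows described with values. The row of the histaminergic marker Hdc, the enzyme that makes histamine, reached a median of only 3 reads and was at 0 in 9 of the 78. With the counting described, so low a count does not show how many histamine neurons the tissue held. In genes of the striatum 3 libraries (Q5A ZT20 replicate 3, H3.3 ZT12 replicate 1 and GFP ZT12 replicate 3) stood far above the rest, and results are also given without them. Q5A ZT16 replicate 3 stood far above the rest in pituitary and arcuate markers, and stayed in the results given without the 3 libraries.

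The difference in rhythm passed the test in 764 of 11405 rows, 6.7% (edgeR quasi-likelihood F test of 2 terms, arm by cosine and arm by sine, Benjamini-Hochberg adjusted p under 0.05). At an unadjusted p under 0.05 there were 2911 rows, or 25.5%. In the same fit 2579 rows (22.6%) were rhythmic in the 52 controls and 646 rows (5.66%) in the 26 Q5A libraries, counts that also reflect the 2 arms' unequal numbers of libraries. Without Q5A ZT16 replicate 1 the Q5A count was 331. Without the 3 libraries 751 rows passed the test of the difference, and 598 of them were among the 764. Without the libraries of replicate number 4 only 96 rows passed. In place of the pooled controls, H3.3 alone gave 1662 rows and GFP alone 426, of which 608 and 360 were shared with the 764.

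Shifted rhythms were the most frequent kind of difference. Rows were sorted by whether each arm was rhythmic at an unadjusted p under 0.05, and by whether the peaks then lay 4 h or more apart. By this rule 491 of the 764 rows (64.3%) were shifted, 140 gained a rhythm in Q5A, 126 lost theirs, and 7 were rhythmic in both arms with peaks less than 4 h apart. In the shifted rows the peaks lay a median of 7.43 h apart, and the median amplitude was 0.40 in the controls and 0.57 in Q5A. The amplitude was larger in Q5A in 433 of the 491 shifted rows, while over all rows tested it was larger in Q5A in 5949 of 11405. Part of this excess follows from the rule, since with 26 libraries against 52 a Q5A wave had to be larger to pass. The median amplitude was 0.19 in the controls and 0.53 in Q5A for gained rows, and 0.37 and 0.27 for lost rows. Here too the rule selects a small wave in the arm that did not pass. Among the 598 rows that also passed without the 3 libraries, 419 were shifted, 113 gained, 59 lost and 7 had the nearer peaks, so that lost rows depended on these libraries more than shifted rows did. Read depth was low in part of these rows, and 113 of the 764 had a median under 10 reads.

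The peaks moved in 2 blocks. In 318 shifted rows (64.8%) the control peak fell between ZT20 and ZT4, at the end of the dark phase and the start of the light phase, and the Q5A peak between ZT12 and ZT20. In 312 of these the shorter way from the control peak to the Q5A peak was to an earlier time, with a median gap of 7.18 h. In another 101 shifted rows (20.6%) the control peak fell between ZT8 and ZT16 and the Q5A peak between ZT0 and ZT8, earlier in 100 of them, with a median gap of 7.11 h. Over all 764 rows 32.1% of control peaks lay between ZT20 and ZT24 and 24.2% between ZT0 and ZT4, while 34.7% of Q5A peaks lay between ZT16 and ZT20, and those of another 214 rows between ZT12 and ZT16. These shares include the control peaks of the 140 gained rows and the Q5A peaks of the 126 lost rows. Those waves did not pass the rule, so their peak times are uncertain. The 2579 rows rhythmic in the controls were spread otherwise, with 30.3% of their control peaks between ZT16 and ZT20 and 20.4% between ZT4 and ZT8.

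**Figure D1:**
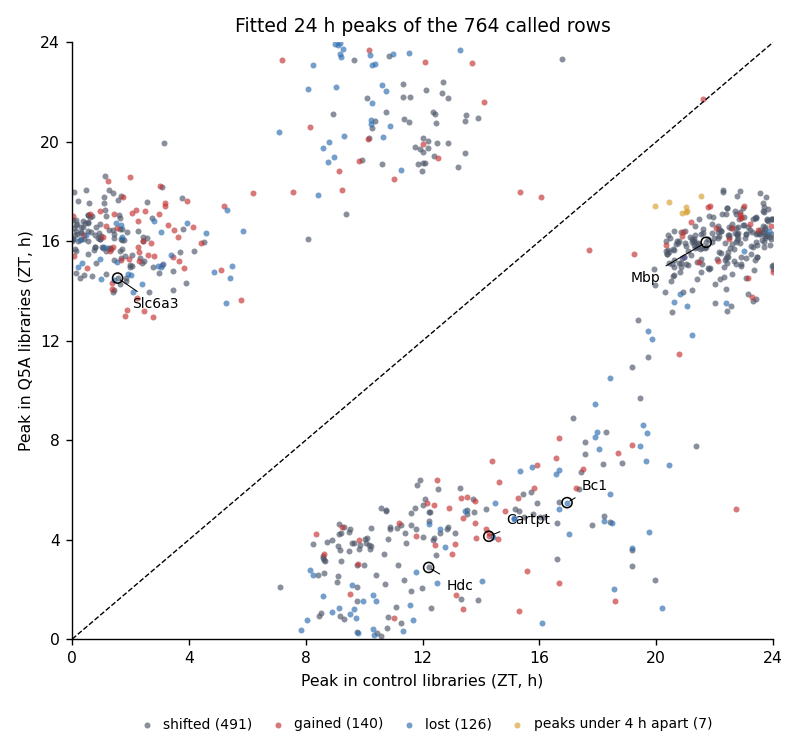
Peak time in the controls (horizontal axis, ZT in hours) against peak time in Q5A (vertical axis, ZT in hours) for the 764 rows called, coloured by class. The 318 shifted rows with control peaks from ZT20 to ZT4 and Q5A peaks from ZT12 to ZT20 form the largest group of points, and most shifted rows lie away from equal peak times by a median of 7.43 h.

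The row with the smallest p was Slc6a3, the dopamine transporter of midbrain dopamine neurons (chr13:73536747-73578672, plus strand). Its Q5A values at ZT16 were 82.2, 27.3, 28.3 and 106 CPM (counts per 1000000 counts of the library), against 0 to 9.56 CPM (median 0.448) in the 8 controls. At ZT12 they were 46.1, 0, 0, 72.5 and 22.1, against 0 to 0.592 CPM (median 0) in the 9 controls. All Q5A libraries at ZT0 and ZT4 were at 0, where the highest control values were 23.6 and 138.1 CPM. The Q5A libraries thus lay above every control at ZT16 and overlapped with them at the other times. The median over the libraries was 0 reads, so the size of the fitted waves is not given. The fitted peak was at ZT1.55 in the controls and ZT14.5 in Q5A (adjusted p = 2.02e-05).

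Cplx1, a complexin that binds the vesicle fusion machinery of synapses (chr5:108518554-108550024, minus strand), came next, with a median of 148.0 reads. Q5A values were 87.3, 52.9, 77.1 and 105 CPM at ZT0, against 91.1 to 293 CPM (median 162) in the controls. They were 109, 50.6, 72.7 and 55.9 at ZT4, where the controls ran from 75.5 to 348 CPM (median 97.1), and 87.6, 63.0, 112, 100.0 and 89.1 at ZT8, where the controls ran from 47.5 to 121 CPM (median 80.0). Q5A was thus below the control median in all 4 libraries at ZT0 and in 3 of 4 at ZT4, although the ranges overlapped. At ZT12 the Q5A values were 197, 124, 145, 194 and 139.5 and the controls spanned 58.3 to 144 CPM (median 86.1). At ZT16 they were 381, 226, 173 and 479.5 in Q5A and 49.2 to 258 CPM (median 83.9) in the controls, and at ZT20 193, 121, 169 and 174 in Q5A and 131 to 273 CPM (median 254) in the controls. Q5A lay above all but the highest control at ZT16, while the controls were high at ZT20. The fit gave amplitude 0.68 ± 0.10 with a peak at ZT22.4 in the controls and 1.02 ± 0.15 with a peak at ZT15.9 in Q5A (adjusted p = 2.02e-05), a gap of 6.43 h.

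Myelin rows followed this course. Of the 8 oligodendrocyte markers tested 6 were called, beside 6.7% of all rows, among them Mbp, Mag, Mobp, Mal and Cldn11, which code for proteins of the myelin sheath, and so was Sox10, the transcription factor that maintains oligodendrocyte identity. Mog and Cnp, the last of which overlaps Dnajc7, were not called (adjusted p = 0.588 and 0.0741). For Mbp the Q5A values were 339, 295, 323 and 626 CPM at ZT0, against 544 to 1343 CPM (median 1093) in the controls. At ZT12 they were 1086, 944, 660.3, 1484 and 1263, against 313 to 845 CPM (median 496), and at ZT16 2717, 1169, 672 and 1995, against 399.5 to 1766 CPM (median 504). Q5A was low at lights on and high in the early dark phase, with overlapping ranges at each of these times. At ZT4, ZT8 and ZT20 the Mbp values of the 2 arms overlapped, with Q5A medians of 440.4, 471.4 and 1261 CPM and control medians of 595.5, 525.9 and 1033 CPM. The fit for Mbp gave amplitude 0.64 ± 0.11 with a peak at ZT21.7 in the controls and 1.09 ± 0.15 with a peak at ZT16.0 in Q5A (adjusted p = 6.97e-05). For Sox10 (chr15:79154908-79165240, minus strand) it gave amplitude 0.52 ± 0.08 with a peak at ZT23.0 in the controls and 0.73 ± 0.12 with a peak at ZT16.6 in Q5A (adjusted p = 6.97e-05), and all 5 Q5A values at ZT12, 29.4 to 46.5 CPM, lay above the 9 controls at 15.1 to 24.1 CPM. Cldn11, a tight junction protein of myelin (chr3:31149920-31164324, plus strand), had amplitude 0.62 ± 0.11 with a peak at ZT21.5 in the controls and 1.21 ± 0.16 with a peak at ZT16.3 in Q5A (adjusted p = 6.97e-05), and its Q5A values at ZT0, 9.19 to 14.3 CPM, lay below all 8 controls at 21.0 to 46.1 CPM. Mag, an adhesion protein of the inner myelin layer (chr7:30899176-30914873, minus strand), had amplitude 0.54 ± 0.12 with a peak at ZT22.4 in the controls and 1.07 ± 0.17 with a peak at ZT15.3 in Q5A (adjusted p = 6.97e-05). The control peaks of these 5 myelin rows lay between ZT21.3 and ZT22.4 and the Q5A peaks between ZT15.3 and ZT16.3, with a larger amplitude in Q5A in each. None of the 5 overlaps an exon on the other strand.

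**Figure D2:**
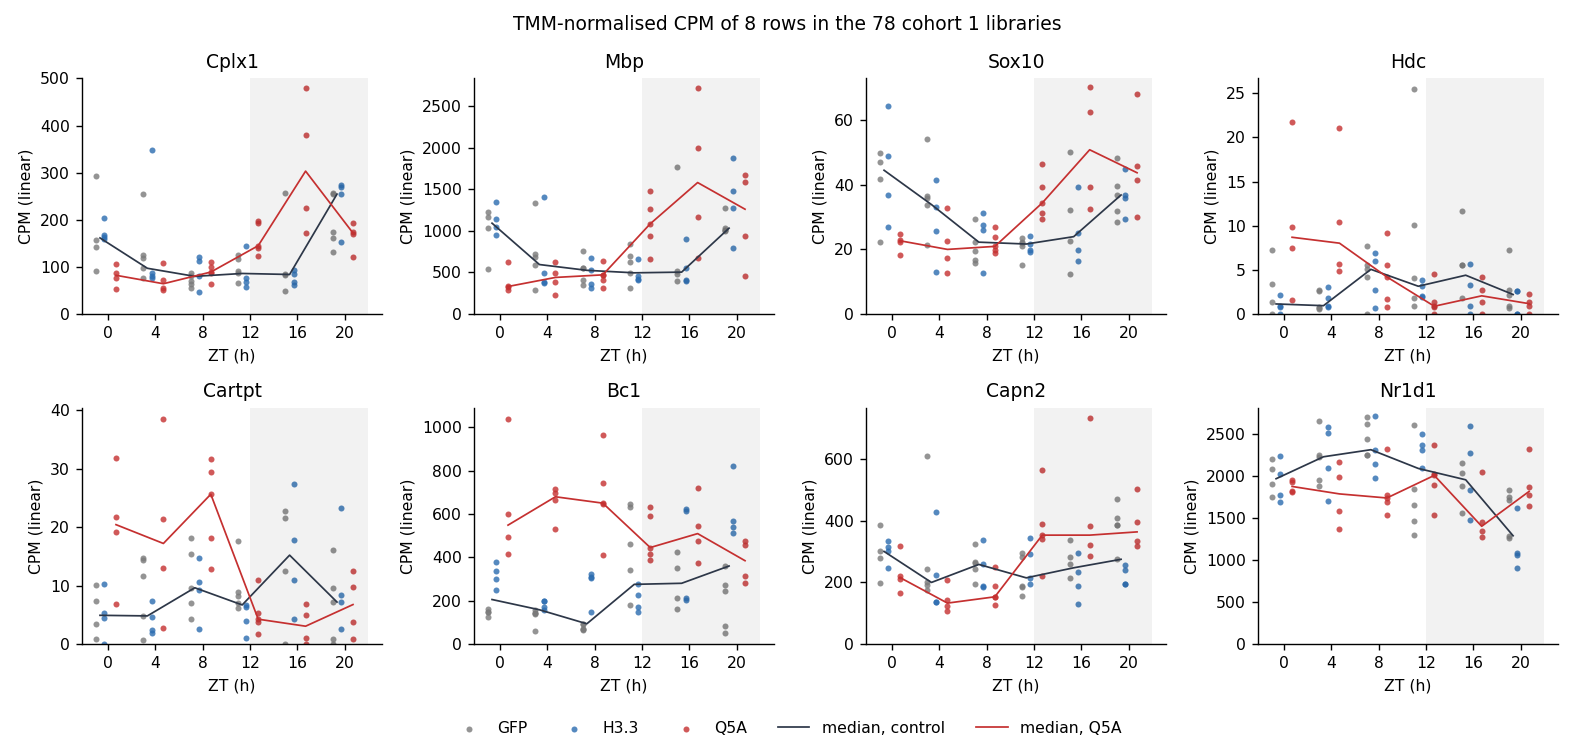
Level in each library (CPM on a linear scale, vertical axes) against ZT in hours (horizontal axes) for the rows Cplx1, Mbp, Sox10, Hdc, Cartpt, Bc1, Capn2 and Nr1d1. Points are libraries of each virus, and part of the dark phase is shaded. In Mbp, Q5A lies low at ZT0 and reaches 2717 CPM at ZT16, while in Hdc it lies high at ZT0 and ZT4, up to 21.7 CPM, and near 0 to 4.58 CPM from ZT12.

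Summed over the 8 oligodendrocyte markers, the control medians were 2699 CPM at ZT0, 1544 to 1632 from ZT4 to ZT16 and 2536 at ZT20. The Q5A medians were 1266, 1336 and 1376 at ZT0, ZT4 and ZT8, then 2606, 3529 and 2981 at ZT12, ZT16 and ZT20. Q5A libraries spanned 1098 to 5538 CPM in this sum and controls 1241 to 4222, so the sum differed as widely between libraries as between times. Over the 78 libraries, which share their depth and normalisation, the log level of 370 of the 764 rows (48.4%) had a correlation with this sum over 0.5 in size, against 8.99% of all rows tested. With the log of the sum added to the fit, a choice made after the results were seen, 1 of 12011 rows was called (Platr9, a long noncoding RNA), 2646 rows were at an unadjusted p under 0.05, and none of the 764 rows stayed under 0.05. Of the 8 rows in the sum 6 were themselves called, so the sum carried part of the difference under test. Rows at an unadjusted p under 0.05 fell less than the calls did, from 2911 of 11405 without the sum to the 2646 with it. For these reasons the fit cannot show whether the calls depended on the level of the oligodendrocyte markers. The amount of white matter or of oligodendrocytes in each piece of tissue was not measured, and its part in the difference was not tested.

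**Figure D3:**
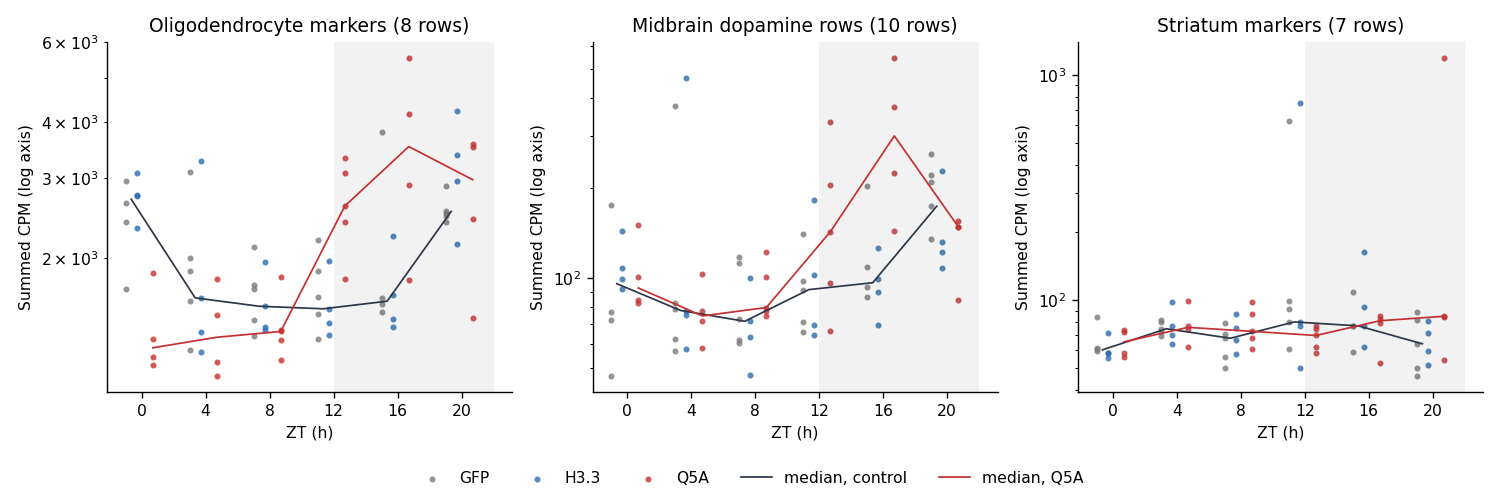
Summed CPM (log vertical axes) of the oligodendrocyte, midbrain dopamine and striatum markers in each library against ZT in hours. The Q5A median of the oligodendrocyte sum climbs from 1266 CPM at ZT0 to 3529 CPM at ZT16, and 1 Q5A library at ZT20 reaches 1185 CPM in the striatum sum.

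A list of midbrain dopamine rows was chosen after Slc6a3 was seen. Of 7 tested, 4 were called, beside 6.7% of all rows, a count that the choice of the list limits as evidence. These were Slc6a3, Th, En1 and Aldh1a1, the transporter, the rate-limiting enzyme of dopamine synthesis, a transcription factor of these neurons and an aldehyde dehydrogenase found in some of them. Aldh1a1 had amplitude 1.02 ± 0.25 with a peak at ZT22.3 in the controls and 2.02 ± 0.38 with a peak at ZT15.3 in Q5A (adjusted p = 0.000267). For Th, with a median of 5 reads, the amplitude was 0.69 ± 0.30 with a peak at ZT1.35 in the controls and 1.41 ± 0.41 with a peak at ZT14.1 in Q5A (adjusted p = 0.00992). The remaining 3, Ddc, Slc18a2 and Drd2, were not called. Slc18a2, the vesicular monoamine transporter that histamine neurons use too (overlapping Gm29261), had amplitude 0.47 ± 0.09 with a peak at ZT19.1 in the controls and 0.41 ± 0.12 with a peak at ZT18.4 in Q5A (adjusted p = 0.859). The sum of the 10 listed rows had Q5A medians of 143.0 and 299.1 CPM at ZT12 and ZT16, against 91.5 and 96.6 CPM in the controls, while at ZT20 the medians were 148.5 and 174.0 CPM. The dopamine neurons of the midbrain are neighbours of the TMN, and whether dissections reached them was not tested. With both this sum and the oligodendrocyte sum in the fit, 21 of 12304 rows were called, 12 of them among the 764, and Hdc and Bc1 were the named rows among these (adjusted p = 0.0476 for each).

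Hdc moved the other way round (chr2:126593667-126619299, minus strand). Its Q5A values were 1.53, 21.7, 9.90 and 7.47 CPM at ZT0, against 0 to 7.23 CPM (median 1.14) in 8 controls. They were 5.65, 4.87, 10.4 and 21.0 at ZT4, against 0.617 to 3.05 CPM (median 0.946) in 9 controls, and 0.755, 4.20, 5.51, 9.20 and 1.75 at ZT8, against 0 to 7.68 CPM (median 5.06) in 9. At ZT4 all Q5A libraries thus lay above all controls, which was so at no other time. At ZT12 the Q5A values were 0.838, 0, 1.31, 4.58 and 0.883, with controls at 0.886 to 25.4 CPM (median 3.15). At ZT16 they were 2.74, 0, 4.17 and 1.38, with controls at 0 to 11.6 CPM (median 4.39), and at ZT20 1.39, 2.27, 0 and 0.958, with controls at 0 to 7.22 CPM (median 2.21). From ZT12 on Q5A was low and mostly inside the control range. The amplitude was 1.00 ± 0.27 with a peak at ZT12.2 (± 0.97 h) in the controls and 1.66 ± 0.38 with a peak at ZT2.88 (± 0.77 h) in Q5A. The difference between the waves was 2.51 ± 0.46 (SE, log2 scale), with an adjusted p of 0.000208. It stayed called without any 1 library (adjusted p 5.7e-05 to 0.00113), with H3.3 alone (0.0144) or GFP alone (0.00124) as control, and was 0.0517 with the oligodendrocyte sum in the fit. Of the other histamine rows tested, Slc18a2, Maoa, Maob and the receptor Hrh3, none was called, nor were the 6 mammillary markers tested, among them Foxb1, Lhx1, Lhx5, Foxa1 and Nkx2-4.

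Other rows of the block that peaked late in the light phase in controls and early in it in Q5A included Clic6, Hap1, Baiap3, Ngb, Sox1, Htr1b and Ahi1, which, apart from Clic6, were picked after their values were seen. Clic6, a chloride channel protein of the choroid plexus with a median of 3 reads (chr16:92485736-92541243, plus strand), had amplitude 1.31 ± 0.25 with a peak at ZT11.4 in the controls and 1.04 ± 0.30 with a peak at ZT3.87 in Q5A (adjusted p = 0.000591). Its fellow choroid plexus markers Ttr, Folr1 and Kl had a median of 0 reads and were not tested. Hap1, which codes for the huntingtin-associated protein abundant in hypothalamic neurons, had amplitude 0.40 ± 0.10 with a peak at ZT11.3 in the controls and 0.69 ± 0.15 with a peak at ZT4.61 in Q5A (adjusted p = 0.00351). Baiap3, a protein of dense core vesicle traffic (overlapping Tsr3), had amplitude 0.25 ± 0.05 with a peak at ZT10.6 in the controls and 0.36 ± 0.07 with a peak at ZT5.28 in Q5A (adjusted p = 0.00316). Ngb, the neuronal globin, had amplitude 0.58 ± 0.17 with a peak at ZT11.8 in the controls and 1.05 ± 0.25 with a peak at ZT4.44 in Q5A (adjusted p = 0.00433), and Htr1b, a serotonin receptor (overlapping D430036J16Rik), had amplitude 0.71 ± 0.15 with a peak at ZT10.8 in the controls and 0.58 ± 0.21 with a peak at ZT0.443 in Q5A (adjusted p = 0.00193). These control peaks lay within ZT10.6 and ZT11.8 and the Q5A peaks within ZT0.443 and ZT5.28.

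**Figure D4:**
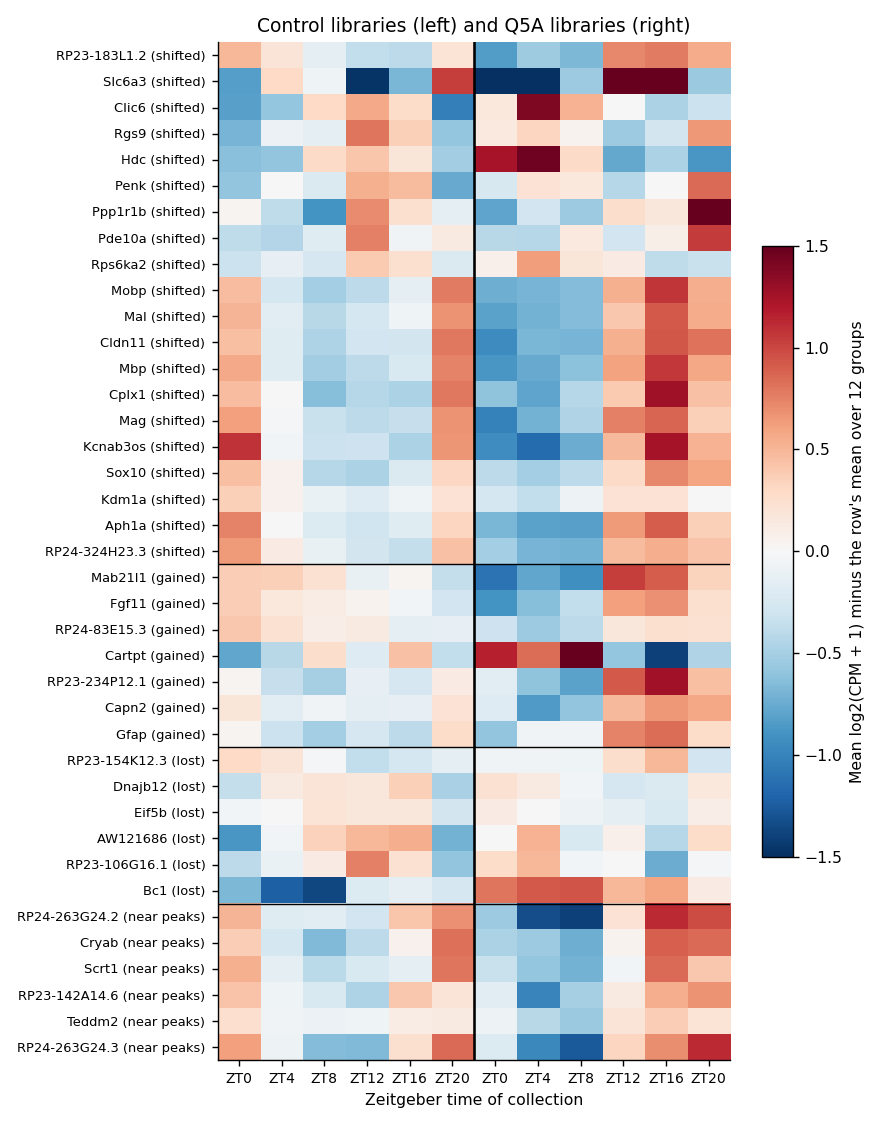
Mean level at each ZT (columns, controls on one side and Q5A on the other) of 39 called rows, as log2(CPM + 1) minus the row's own mean over the 12 groups, with values past 1.5 in size drawn in the end colours. Myelin rows and Cplx1 are high at ZT20 and ZT0 in the controls and at ZT12 to ZT20 in Q5A, and Hdc and Cartpt are high in the light phase in Q5A.

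Among rows that gained a rhythm in Q5A, Capn2, a calcium-dependent protease (chr1:182467260-182517608, minus strand, overlapping Gm37885), had the smallest p. Its Q5A values were 142, 124, 207 and 109 CPM at ZT4, against 135 to 610.5 CPM (median 200.0) in the controls, and 735, 285, 323 and 384 at ZT16, against 130.0 to 338 CPM (median 248). Q5A was low at ZT4 and high at ZT16 while the control medians stayed between 200.0 and 300.6 CPM, and the ranges overlapped at every ZT. The fit gave amplitude 0.18 ± 0.09 with a peak at ZT22.6 in the controls and 0.86 ± 0.12 with a peak at ZT16.5 in Q5A (adjusted p = 0.000288). Fgf11, an intracellular relative of the fibroblast growth factors (chr11:69796068-69801857, minus strand), had amplitude 0.17 ± 0.11 with a peak at ZT3.81 in the controls and 0.91 ± 0.16 with a peak at ZT14.9 in Q5A (adjusted p = 0.000313), and Mab21l1 had amplitude 0.31 ± 0.18 with a peak at ZT1.68 in the controls and 1.3 ± 0.27 with a peak at ZT15.2 in Q5A (adjusted p = 0.00154). At ZT12 all 5 Q5A values of Mab21l1, 13.4 to 19.6 CPM, lay above the 9 controls, 4.43 to 10.9 CPM. Mab21l1 overlaps an exon of Nbea on the other strand. A pair of gained rows matched no gene of the annotation, RP23-234P12.1 with a Q5A peak at ZT15.9 and another clone-named row with one at ZT16.6.

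Cartpt, which codes for the neuropeptide CART of arcuate and other hypothalamic neurons (chr13:99898489-99901091, minus strand), gained its rhythm at the other time of day. Q5A values were 6.89, 31.9, 19.1 and 21.8 CPM at ZT0, against 0 to 10.2 CPM (median 4.91) in the controls. They were 2.83, 21.4, 13.0 and 38.5 at ZT4, against 0.652 to 14.7 CPM (median 4.81), and 18.1, 29.4, 12.9, 31.6 and 25.6 at ZT8, against 2.59 to 18.1 CPM (median 9.62). At each of these times the Q5A median lay above the highest control, while the ranges overlapped. At ZT12 the values were 10.9, 4.25, 5.22, 3.82 and 1.77 in Q5A and 1.03 to 17.7 CPM (median 6.69) in the controls. At ZT16 they were 1.1, 6.84, 5.00 and 0 and 0 to 27.4 CPM (median 15.2), and at ZT20 9.72, 3.78, 0.936 and 12.5 and 0 to 23.3 CPM (median 7.18). Cartpt was thus low in Q5A after lights off, where the controls spread from 0 to 27.4 CPM. The fit gave amplitude 0.43 ± 0.21 with a peak at ZT14.3 in the controls and 1.46 ± 0.30 with a peak at ZT4.13 in Q5A (adjusted p = 0.0015). The other arcuate markers tested, Agrp and Tac2, were not called.

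Among rows that lost their rhythm, Bc1, a short noncoding RNA that represses translation near synapses (chr7:144914470-144914637, plus strand), was high in Q5A throughout the light phase. Its Q5A values were 414, 496, 601 and 1040 CPM at ZT0, against 126 to 380.2 CPM (median 205) in the controls. They were 662, 696, 532 and 716 at ZT4, against 61.3 to 200.5 CPM (median 158), and 409, 743, 649.8, 966 and 646 at ZT8, against 63.5 to 323 CPM (median 93.4). Every Q5A library lay above every control at these 3 times. At ZT12 the values were 592, 417, 632, 385 and 445 in Q5A and 146 to 646 CPM (median 275) in the controls. At ZT16 they were 543, 721, 375 and 475 and 162 to 621 CPM (median 280.2), and at ZT20 475, 455, 314 and 279.8 and 51.9 to 822 CPM (median 359.9). In the dark phase the arms overlapped, so the control rhythm, low by day and high by night, met a Q5A level that was high by day as well. The fit gave amplitude 0.74 ± 0.13 with a peak at ZT16.9 in the controls and 0.32 ± 0.19 with a peak at ZT5.49 in Q5A (adjusted p = 0.00528).

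The other lost rows named were AW121686, Dnajb12, Eif5b, RP23-154K12.3 and RP23-106G16.1. Dnajb12, a co-chaperone of the endoplasmic reticulum (chr10:59879556-59899302, plus strand), had amplitude 0.35 ± 0.07 with a peak at ZT10.3 in the controls and 0.25 ± 0.10 with a peak at ZT0.388 in Q5A (adjusted p = 0.00657). Its Q5A values at ZT20, 48.6 to 58.0 CPM, lay above all 9 controls, 25.4 to 47.3 CPM. Eif5b, which joins the ribosomal subunits (chr1:37998010-38055579, plus strand, overlapping Rev1), had amplitude 0.20 ± 0.04 with a peak at ZT10.3 in the controls and 0.15 ± 0.06 with a peak at ZT0.152 in Q5A (adjusted p = 0.00675). AW121686, a noncoding row that overlaps Gm29019 and Tcf20, had amplitude 0.76 ± 0.14 with a peak at ZT11.6 in the controls and 0.33 ± 0.19 with a peak at ZT1.36 in Q5A (adjusted p = 0.00586). Lost here means that the Q5A wave was not past an unadjusted p of 0.05, which does not show that a rhythm was absent.

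The 7 rows with peaks less than 4 h apart all had the larger wave in Q5A, which the rule for the classes favours. Their median amplitudes were 0.58 in the controls and 1.00 in Q5A, with a median gap between peaks of 3.69 h. Scrt1, a transcriptional repressor of neurons (chr15:76516203-76522499, minus strand), had amplitude 0.58 ± 0.08 with a peak at ZT21.0 in the controls and 0.76 ± 0.12 with a peak at ZT17.4 in Q5A (adjusted p = 0.00763). Cryab, a small heat shock protein made by oligodendrocytes among other cells (chr9:50751325-50756636, plus strand, overlapping Hspb2), had amplitude 0.73 ± 0.11 with a peak at ZT20.9 in the controls and 1.00 ± 0.16 with a peak at ZT17.1 in Q5A (adjusted p = 0.01). The row named Teddm2 overlaps Glul, the glutamine synthetase of glia, and had amplitude 0.15 ± 0.05 with a peak at ZT21.1 in the controls and 0.46 ± 0.08 with a peak at ZT17.2 in Q5A (adjusted p = 0.01) at a mean of 3102 CPM, so that its reads cannot be assigned to either gene. The remaining named rows, RP24-263G24.2, RP24-263G24.3 and RP23-142A14.6, matched no annotated gene, and peaked in Q5A at ZT17.4, ZT17.8 and ZT17.2.

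Among the 10 rows of smallest p were 4 whose names do not settle the gene. Aph1a, a subunit of gamma-secretase (chr3:95893969-95898288, plus strand), overlaps Car14, a carbonic anhydrase, and had amplitude 0.48 ± 0.11 with a peak at ZT23.4 in the controls and 1.01 ± 0.16 with a peak at ZT16.0 in Q5A (adjusted p = 6.91e-05). Kcnab3os is an antisense row of the potassium channel subunit gene Kcnab3 and had amplitude 0.73 ± 0.13 with a peak at ZT22.7 in the controls and 1.19 ± 0.19 with a peak at ZT15.9 in Q5A (adjusted p = 6.91e-05). RP23-183L1.2 and RP24-324H23.3 matched no gene of the annotation and had control peaks at ZT0.740 and ZT23.7 and Q5A peaks at ZT15.7 and ZT16.2. For Aph1a, Kcnab3os and both of these rows, all 4 Q5A libraries at ZT0 lay below all 8 controls. Kcnab3os, for example, had 48.2, 25.8, 58.7 and 93.1 CPM there, against 135 to 443 CPM (median 203).

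No clock row was called. Of 20 clock genes 15 were tested, 10 were rhythmic in the controls (Clock, Per1, Per2, Per3, Nr1d1, Nr1d2, Rora, Dbp, Tef and Hlf) and 1, Dbp, in Q5A. Rora, with a control peak at ZT19.8, was also in the thalamus list. The sum of that list had a control median of 104.6 CPM at ZT20 and of 47.7 to 58.5 CPM at the other times, and its part in the Rora rhythm was not tested. Per1, Tef, Nr1d1, Per2 and Rora differed between the arms at an unadjusted p under 0.05, 5 of 15 beside 25.5% of all rows. Dbp, a transcription factor that the clock drives (overlapping Sphk2), had amplitude 0.23 ± 0.07 with a peak at ZT12.0 in the controls and 0.35 ± 0.10 with a peak at ZT11.3 in Q5A (adjusted p = 0.693). Its Q5A values at ZT12 were 23.4, 35.7, 39.2, 32.0 and 30.9 CPM, against 15.5 to 34.4 CPM (median 27.3) in the controls, and ZT12 held the highest median of the day in both arms. Per1, a repressor of the clock, had amplitude 0.55 ± 0.13 with a peak at ZT14.5 in the controls. In Q5A it had amplitude 0.19 ± 0.17 with a peak at ZT7.46 (± 3.52 h), with an adjusted p of 0.121 for the difference. Its difference was 0.63 ± 0.22 (SE). For Per2 the difference was 0.83 ± 0.30 (adjusted p = 0.156), at a median of 6 reads. The Nr1d1 row, at a mean of 1928 CPM, overlaps the abundant thyroid hormone receptor gene Thra, so that it does not stand for the nuclear receptor REV-ERB alpha by itself. Its Q5A values at ZT20 were 1861, 1645, 2315 and 1766 CPM, against 902 to 1831 CPM (median 1287) in the controls. Its amplitude was 0.29 ± 0.05 in the controls, with a peak at ZT7.54. In Q5A it was 0.04 ± 0.08 with a peak at ZT4.77 (± 7.7 h, adjusted p = 0.133 for the difference). Arntl, Cry2, Ciart, Bhlhe40 and Bhlhe41 were rhythmic in neither arm. Tef, Rora, Arntl, Cry2, Bhlhe40 and Bhlhe41 also overlap an exon of another gene on the other strand.

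Promoters were read from RefSeq (build GRCm38.p6, 250 bases before to 50 after each start) for 4 rows that stand for the kinds of course above, with each E-box CACGTG, the element that CLOCK and BMAL1 bind, and each cAMP response element TGACGTCA in capitals. Both motifs read the same on both strands. Hdc is shown for the row of the histamine neurons, Slc6a3 for the row of smallest p, Cartpt for a gained rhythm in the light phase and Per1 for the clock.
Hdc (chr2:126618629-126618928, minus strand): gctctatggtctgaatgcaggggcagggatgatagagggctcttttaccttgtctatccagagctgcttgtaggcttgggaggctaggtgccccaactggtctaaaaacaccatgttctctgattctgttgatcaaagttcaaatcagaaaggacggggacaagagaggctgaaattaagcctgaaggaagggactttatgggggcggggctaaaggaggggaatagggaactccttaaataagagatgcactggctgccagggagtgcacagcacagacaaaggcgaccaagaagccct
Slc6a3 (chr13:73536497-73536796, plus strand): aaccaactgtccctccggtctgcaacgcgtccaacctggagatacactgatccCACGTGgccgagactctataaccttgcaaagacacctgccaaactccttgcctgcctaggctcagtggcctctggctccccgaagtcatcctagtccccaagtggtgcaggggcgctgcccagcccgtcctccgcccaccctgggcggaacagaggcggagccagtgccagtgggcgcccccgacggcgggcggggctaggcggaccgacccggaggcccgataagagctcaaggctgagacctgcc
Cartpt (chr13:99900634-99900933, minus strand): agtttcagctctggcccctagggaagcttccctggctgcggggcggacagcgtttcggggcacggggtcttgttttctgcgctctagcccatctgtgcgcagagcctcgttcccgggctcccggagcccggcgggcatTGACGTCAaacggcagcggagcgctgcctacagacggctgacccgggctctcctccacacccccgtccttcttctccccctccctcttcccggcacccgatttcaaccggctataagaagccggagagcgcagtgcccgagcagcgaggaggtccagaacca
Per1 (chr11:69098699-69098998, plus strand): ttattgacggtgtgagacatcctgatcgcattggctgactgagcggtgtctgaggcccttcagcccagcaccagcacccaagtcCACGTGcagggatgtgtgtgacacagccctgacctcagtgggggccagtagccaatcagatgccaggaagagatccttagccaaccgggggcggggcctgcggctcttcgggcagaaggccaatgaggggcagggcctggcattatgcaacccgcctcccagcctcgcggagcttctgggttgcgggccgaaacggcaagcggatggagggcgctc
The Slc6a3 and Per1 windows hold 1 E-box each, the Cartpt window 1 cAMP response element and the Hdc window neither. The table holds another Per1 window, further downstream, which has neither motif and is not shown. An E-box was found in 38 of the 386 called rows with a promoter in the table (9.84%), in 776 of 6766 rows tested (11.5%) and in 8.09% of all 27025 promoters. By class it was in 8.49% of shifted, 13.8% of gained and 11.5% of lost rows, and in 4 of 13 clock rows (Per1, Tef, Bhlhe41 and Ciart). The cAMP response element was in 3.11% of called and 3.56% of tested rows, against 2.03% of all promoters. The share of called rows with either motif was thus near that of the rows tested.

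Rows of other lists were called singly or not at all. Kdm1a, a demethylase of histone H3 lysine 4 (chr4:136550540-136602723, minus strand), was the 1 called row of 14 tested for H3K4 methyltransferase complexes and their antagonists, where 6.7% of all rows were called, with amplitude 0.25 ± 0.07 with a peak at ZT23.1 in the controls and 0.32 ± 0.10 with a peak at ZT14.5 in Q5A (adjusted p = 0.0084). Its call was lost with GFP alone as control (adjusted p = 0.146) and with ZT as a factor (0.0997). At ZT0 its Q5A values were 23.7, 25.1, 22.6 and 29.9 CPM, against 26.4 to 62.0 CPM (median 38.1). Rps6ka2, a kinase downstream of growth factor signals, was the 1 of 10 neurotrophin rows (adjusted p = 0.0455). Leaving out 1 library ended its call in 21 of 78 cases, with adjusted p up to 0.113. Gfap, the filament protein of reactive astrocytes, was the 1 of 7 astrocyte rows, with amplitude 0.38 ± 0.20 with a peak at ZT23.1 in the controls and 1.05 ± 0.27 with a peak at ZT14.5 in Q5A (adjusted p = 0.0183). Single Q5A libraries at ZT16 and ZT12 reached 326.8 and 217.5 CPM of Gfap where the Q5A medians were 31.2 and 43.6 CPM. Without Q5A ZT16 replicate 1, Q5A ZT12 replicate 4 or GFP ZT4 replicate 4 the adjusted p of Gfap was 0.0844, 0.0752 and 0.0515. No row was called among 6 immediate early, 9 heat shock and cold inducible, 9 glucocorticoid responsive, 7 H3.3 and chaperone, 24 synaptic receptor, 4 microglial, 1 endothelial, 2 ependymal, 3 lateral hypothalamic, 2 pituitary, 5 thalamic, 3 cortical, 2 blood and 1 sex-linked rows tested. At an unadjusted p under 0.05 the synaptic receptor rows were 10 of 24, the heat shock rows 4 of 9, the TMN transmitter rows 4 of 7 and the astrocyte rows 4 of 7, beside 25.5% of all rows. The 4 hindbrain rows were too low to test. Their sum at ZT16 was 0.57 to 17.0 CPM (median 9.68) in Q5A and 0 to 8.37 CPM (median 0.854) in the controls. Whether dissections reached other tissue at that time was not tested. Over the lists the median size of the difference between the waves was 0.11 in arcuate, 1.07 in oligodendrocyte and 1.25 in striatum rows, 2.09 in the midbrain dopamine rows chosen after the values were seen, and 0.29 over all rows. In lists without a call it was 0.83 (mammillary), 0.90 (lateral hypothalamic) and 0.80 (thalamic). Median reads were 6 in the dopamine, 6.25 in the mammillary, 7 in the thalamic, 58.5 in the lateral hypothalamic and 168 in the oligodendrocyte list, against 20.5 over all rows.

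The calls of striatum rows rested on the 3 libraries. Ppp1r1b, Penk, Rgs9 and Pde10a, which mark the spiny neurons of the striatum, were called, 4 of 6 tested, beside 6.7% of all rows. Ppp1r1b overlaps the noncoding 1700003D09Rik and Penk overlaps A830012C17Rik. The Q5A values of Ppp1r1b at ZT20 were 8.33, 12.1, 454 and 10.5 CPM, and the controls at ZT12 ran from 3.82 to 279.9 CPM (median 6.59). Their sum reached 1185 CPM in 1 Q5A library at ZT20 and 753.1 CPM in 1 control at ZT12, while the medians of all groups lay between 60.3 and 85.0 CPM. Without the 3 libraries the adjusted p was 0.331 for Ppp1r1b, 0.23 for Penk, 0.0832 for Rgs9 and 0.779 for Pde10a. Penk, which codes for proenkephalin, was also the 1 called row of 7 TMN transmitter rows, where 6.7% of all rows were called. The summed lateral hypothalamic rows Pmch, Hcrt and Parpbp spanned 31.2 to 53700 CPM over the libraries, and their part in the results was not tested. Parpbp was the most abundant of the 3, and its exons overlap those of Pmch, the gene of melanin-concentrating hormone, on the other strand. In Q5A ZT16 replicate 3 the pituitary sum was 1066 CPM and the arcuate sum 299 CPM, against medians of 202 and 39.2 CPM over the Q5A libraries. The part of that library's tissue in the results was not tested.

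Between the 2 control viruses the same test called 1 of 10882 rows (0.00919%), Fat1, a large cadherin (overlapping Gm2366, adjusted p = 0.00458), and 1857 rows (17.1%) were at an unadjusted p under 0.05. In cohorts 2 and 3, with 13 Q5A and 19 control libraries, edgeR called 0 of 12715 rows (0%), DESeq2 also called 0, and 245 rows (1.93%) were at an unadjusted p under 0.05. Hdc had an unadjusted p of 0.649 there. The difference itself between the rhythm differences of cohort 1 and of cohorts 2 and 3 was called in 1 of 13891 rows (0.0072%), Platr9 (adjusted p = 0.0022), with 1112 rows at an unadjusted p under 0.05. Of the 761 called rows also tested in cohorts 2 and 3, 274 (36.0%) differed there in the same direction, that is, with a positive projection on the difference of cohort 1, against 60.0% of all rows. The share was 27.1% for shifted, 48.6% for gained and 56.9% for lost rows. Only Muc15, RP23-27C9.6 and Rpusd3 of the 761 were at an unadjusted p under 0.05 in those cohorts. The difference in rhythm described here was thus seen in cohort 1 and was not detected in the other, smaller cohorts. There the called rows had a median projection of -0.0945 on it, against 0.0658 over all rows.

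**Figure D5:**
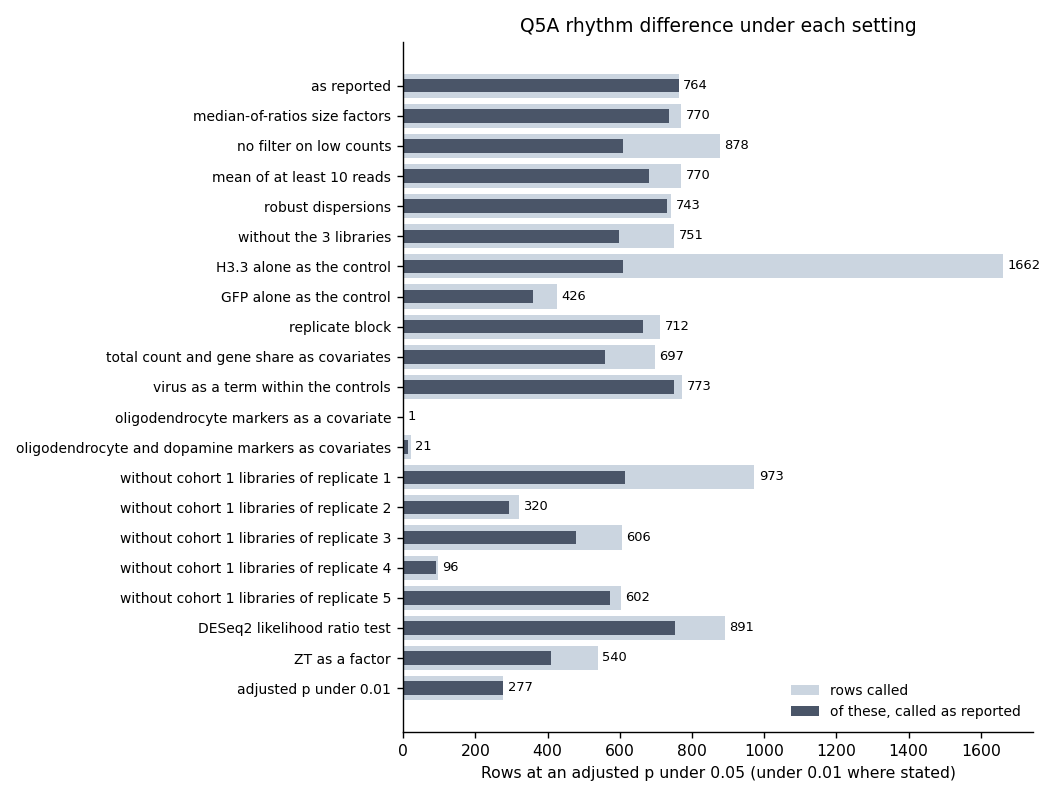
Number of rows with a called rhythm difference in cohort 1 (horizontal axis) under each setting of the analysis (vertical axis). Most settings lie near the 764 rows of the fit described, while GFP alone as control gives 426, H3.3 alone 1662, and the oligodendrocyte covariate 1. Leaving out the libraries of replicate number 4 gives 96.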

How the data were processed

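RNA-seq of polyadenylated RNA was examined in 78 cohort 1 libraries. The authors made the libraries with an Illumina Stranded mRNA Prep Ligation kit, aligned reads to GRCm38 with STAR 2.7.11b and assigned reads in exons to gene names using HTSeq 2.0.5 (union mode, stranded set to yes), per the study's methods and the submitters' processing notes. The deposited values are raw counts for 54087 gene names per library, and 5 further entries that name no gene were kept out (gene rows held 3.49% to 4.82% of uniquely placed reads). Another 18 tables matched no sample of the series and were not used. A pair of libraries outside cohort 1 that differed by less than sampling noise were counted as 1 sample.

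Counts were normalised by TMM and fitted with edgeR 4.0.16 in R 4.3.3 (quasi-likelihood, an intercept, cosine and sine of 24 h for each arm), after filterByExpr with a minimum count of 10 and a minimum total of 15. Hdc failed this filter and was kept as 1 added row. Standard errors (SE) are from the fit, and CPM use TMM library sizes. Adjusted p are Benjamini-Hochberg over all rows tested. DESeq2 1.42.0 was an alternative. The code was tested on simulated data. Members and gene lists were chosen with earlier results of these data known. Named rows were Hdc, the 10 called rows of smallest p, 6 per class with a median of at least 10 reads that were also called without the 3 libraries, every called row of the lists and every clock row tested. Results for 2 rows of the lists are not reported here. Replicates are separate mice per the labels' numbering and the study's methods. Positions are those of the GRCm38 annotation, and promoters are from RefSeq. The libraries' 673306 to 1894491 counts limit rows of few reads.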

Additional observations from a re-analysis of the deposited data

Results flagged for a closer look

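For 8 measures, each library's value was compared with the other libraries of its arm and ZT. In 13 of 96 groups the highest or lowest library stood far from the rest by Dixon's criterion, where chance flags about 1 in 20 groups.

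The control GFP ZT16 replicate 1 was the highest of its group in 4 of these measures. Its oligodendrocyte marker sum was 3806 CPM (group median 1605), its midbrain dopamine sum 203.8 CPM (median 96.6), its Cplx1 value 257.6 CPM (median 83.9) and its Mbp value 1766 CPM (median 504.1). In Q5A the Mbp value of ZT0 replicate 4 was 625.9 CPM (median 331.2), and the dopamine sum of ZT20 replicate 1 was 84.7 CPM, the lowest of a group with a median of 148.5. The striatum sum was 1185 CPM in Q5A ZT20 replicate 3 (median 85.0) and 52.5 CPM in Q5A ZT16 replicate 3 (median 81.2). Hdc was high in 4 libraries, at 4.58 CPM in Q5A ZT12 replicate 4 (median 0.883), 7.23 CPM in GFP ZT0 replicate 1 (median 1.14), 25.4 CPM in GFP ZT12 replicate 4 (median 3.14) and 7.22 CPM in GFP ZT20 replicate 3 (median 2.21). Bc1 was low in GFP ZT4 replicate 4, at 61.3 CPM (median 158.0).

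Tests of a difference between groups marked 2 rows. Fat1 differed in rhythm between H3.3 and GFP (adjusted p = 0.00458), and Platr9 differed in the Q5A effect between cohort 1 and cohorts 2 and 3 (adjusted p = 0.0022, edgeR in both cases).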

How the results depend on the processing

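The count of 764 rows stayed within 1.5 times under median-of-ratios size factors (770), no filter (878), a mean of at least 10 reads (770), robust dispersions (743), total count and gene share as covariates (697), virus as a term (773), DESeq2 (891) and ZT as a factor (540). The rows themselves changed more than their number. Of the 764, ZT as a factor called 410, total count and gene share 558, no filter 608 and DESeq2, the most, 752. The count moved with H3.3 alone (1662) or GFP alone (426) as control and at an adjusted p under 0.01 (277). With the oligodendrocyte sum, and with that and the dopamine sum, both chosen after seeing the data, it was 1 and 21. Leaving out 1 library gave 603 to 981, and leaving out 1 replicate number gave 96 (number 4) to 973. Rhythmic control rows numbered 646 with GFP alone, 371 and 868 with the 1 or 2 marker covariates, and 1207 to 3148 with libraries left out. Rhythmic Q5A rows numbered 45 and 14 with the covariates and 168 to 753 with libraries left out. The H3.3 against GFP test gave 378 rows without a filter and 5 by DESeq2, the test in cohorts 2 and 3 gave 46 without a filter, and the test between cohort sets gave 161 without a filter and 0 by DESeq2. The adjusted p of Hdc ran from 5.7e-05 to 0.023 with libraries left out, and was 0.0517 with the oligodendrocyte sum. Apart from the alternatives' own construction, the cause of these moves was not tested.

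Replicate numbers did not pair the libraries. Of 616 same-numbered pairs from different groups, 131 had correlated deviations over 0.1, against 476 of 2255 pairs of other numbers, and 16 of 78 libraries were closest to one of their own number. With the replicate number as a block, 712 rows were called, 2376 control rows and 572 Q5A rows were rhythmic, and the adjusted p of Hdc was 0.000395.

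Of the 39 called rows that the rule selects besides Hdc, Gfap, Pde10a, Penk, Ppp1r1b and Rps6ka2 lost their call without some single library, and 30 of the 39 lost it without 1 of the replicate numbers. Cryab stayed just under the threshold without Q5A ZT16 replicate 1 (adjusted p = 0.04998). Under the remaining settings, the marker sums apart, 16 of the 39 lost their call at least once. With GFP alone the adjusted p was 0.0819 for AW121686, 0.141 for Eif5b, 0.0729 for Scrt1, 0.146 for Kdm1a, 0.0807 for RP23-234P12.1, 0.115 for Penk, 0.141 for Gfap, 0.0696 for Pde10a and 0.172 for Rps6ka2. With H3.3 alone it was 0.0754 for Pde10a and 0.0507 for RP24-263G24.3. With ZT as a factor it was 0.0523 for RP23-106G16.1, 0.0997 for Kdm1a, 0.0698 for Cryab, 0.0506 for Teddm2, 0.0799 for RP24-263G24.3, 0.112 for Gfap and 0.206 for Rps6ka2. Total count and gene share as covariates ended the calls of Ppp1r1b, Penk, Pde10a and Rps6ka2, the replicate block that of Ppp1r1b (0.0653) and no filter that of Rps6ka2 (0.0641). Of the clock rows, Per1 was called with GFP alone (adjusted p = 0.0399), Rora with H3.3 alone (0.0372) and Nr1d1 with ZT as a factor (0.0376). Few reads per row limit Hdc, Clic6 and the dopamine rows most.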

Other observations

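Further rows of the block that peaked near lights on in the controls and in the dark phase in Q5A, chosen after their values were seen, were Apod, Bcas1 and Hcn2. Apod, an apolipoprotein of glia, had an amplitude of 0.76 with a peak at ZT21.5 in the controls and of 1.33 with a peak at ZT15.7 in Q5A. Bcas1, a marker of oligodendrocytes that are forming myelin (overlapping its own antisense genes), went from 0.58 at ZT22.1 to 0.80 at ZT16.4. Hcn2, a pacemaker channel of neurons and oligodendrocytes, went from 0.38 at ZT22.7 to 0.60 at ZT15.1.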
